A study of Mus musculus with 6 samples.

Results

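The enzymes described here carry out or feed gluconeogenesis in mouse liver, 9 genes chosen by name: G6pc, Pck1, Fbp1, Pcx, Slc37a4, Tat, Sds, Gpt and Gpt2. Every probe set paired with exactly 1 of these genes was taken, which gave 15 of the 22690 probe sets on the array. Of these, 4 are control probe sets for Pcx and 11 are ordinary ones, and they represent 8 of the 9 genes. No probe set was paired with Sds (serine dehydratase) alone, and Sds was not analysed here. All 8 remaining genes passed the filter on low signals and were tested among 9685 genes.

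The livers came from wild-type C57Bl/6 male mice from Jackson Laboratories that had received recombinant FGF19, purified FGF15 or vehicle by injection into the jugular vein. They were taken 6 h later, and the mice had no food in that time. Total RNA was labelled with biotin and hybridised to the Affymetrix Mouse Genome 430A 2.0 array, with 2 arrays each for FGF19, FGF15 and vehicle. All animals were thus without food, the vehicle mice included. FGF19 is the human hormone and FGF15 its mouse orthologue. How old the mice were, what dose they had and what the vehicle held is not given in the sources used here. Nor do the labels state that each array stands for its own animal, and p-values therefore measure the spread between arrays, which may be technical.

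Gluconeogenesis makes glucose from lactate, glycerol and amino acids and keeps blood glucose up when no food is absorbed. Transaminases and dehydratases such as those of Gpt, Gpt2, Tat and Sds release carbon from amino acids, pyruvate carboxylase (Pcx) and cytosolic phosphoenolpyruvate carboxykinase (Pck1) carry it to phosphoenolpyruvate, and fructose bisphosphatase (Fbp1) and glucose-6-phosphatase (G6pc), with the transporter Slc37a4 that brings its substrate into the endoplasmic reticulum, complete the path to free glucose. Glucagon, acting through cAMP, and glucocorticoids raise several of these genes and insulin lowers them, with G6pc and Pck1 as the textbook examples. FGF15 and FGF19 are released by the ileum after a meal and act on the liver.

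Only some of the steps changed by the test. G6pc was 1.99-fold lower with FGF19 and 2.49-fold lower with FGF15 than with vehicle, and Pck1 was 1.26-fold lower with FGF19 and 1.35-fold lower with FGF15. Tat, which opens the breakdown of tyrosine, was 1.66-fold lower with FGF15, whereas with FGF19 it did not pass the test, and its level was 1.86-fold higher with FGF19 than with FGF15. Gpt, the alanine transaminase, rose 1.24-fold with FGF19 and 1.18-fold with FGF15. Fbp1, Pcx, Slc37a4 and Gpt2 did not pass the test in any of the comparisons.

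The start regions of the 3 genes that fell are shown because cAMP and insulin responses of G6pc and Pck1 are known to act through elements close to the start site. The sequences are RefSeq's, from build GRCm38.p6, and cover 250 bases before to 50 bases after the annotated start (300 bases, 5′ to 3′ on the plus strand). They lie at chr11:101367466-101367765 for G6pc, chr2:173152823-173153122 for Pck1 and chr8:109990186-109990485 for Tat. The Tat window lies inside the annotated span of the gene (109986078 to 109999804), so its start site is not the first base of that span. Capitals mark matches, on either strand, to 7 motifs: TGACGTCA (the full cAMP response element), TTACGTCA (the form known from Pck1), TGACG (the half-site, contained in both forms on one strand or the other), TTGTTTAC (FOXO core), TGTTTTG and TATTTTG (cores of insulin response elements) and CCAAT.
G6pc: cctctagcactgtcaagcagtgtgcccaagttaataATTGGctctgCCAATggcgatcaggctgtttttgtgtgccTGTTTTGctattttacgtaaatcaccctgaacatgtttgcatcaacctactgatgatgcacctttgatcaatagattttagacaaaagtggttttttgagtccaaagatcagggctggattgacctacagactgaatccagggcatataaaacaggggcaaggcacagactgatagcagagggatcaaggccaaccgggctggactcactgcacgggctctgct
Pck1: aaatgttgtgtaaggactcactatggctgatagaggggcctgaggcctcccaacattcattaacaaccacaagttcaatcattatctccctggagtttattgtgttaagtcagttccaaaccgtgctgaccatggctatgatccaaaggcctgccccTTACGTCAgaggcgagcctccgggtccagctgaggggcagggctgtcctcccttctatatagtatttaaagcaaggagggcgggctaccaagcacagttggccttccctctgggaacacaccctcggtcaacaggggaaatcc
Tat: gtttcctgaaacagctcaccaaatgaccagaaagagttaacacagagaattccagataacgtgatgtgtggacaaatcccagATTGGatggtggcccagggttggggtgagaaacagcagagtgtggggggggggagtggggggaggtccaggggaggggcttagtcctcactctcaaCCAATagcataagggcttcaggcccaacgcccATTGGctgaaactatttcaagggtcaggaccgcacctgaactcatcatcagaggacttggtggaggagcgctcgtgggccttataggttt
Positions are counted from the start site as +1, with -1 just before it. In the G6pc window the insulin response core TGTTTTG stood at -174 to -168, and CCAAT matched at -214 to -210 (reverse strand) and -204 to -200. Only exact matches were marked, so a missing match does not show that an element is absent. Shortly after TGTTTTG the G6pc window reads ttacgtaa, which is close to TTACGTCA but was not marked. The Pck1 window held TTACGTCA at -93 to -86, with the half-site inside it at -90 to -86 on the reverse strand. TTACGTCA was included as the form known from Pck1, so the choice of motif fixed this match and it is no independent result. In the Tat window the matches were 3 CCAAT boxes, at -168 to -164, -72 to -68 and -40 to -36.

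Windows were available for 7 of the 9 genes, with several start sites for Pcx and Slc37a4. Among all 32851 promoter windows of that length, TTACGTCA occurred in 0.499%, TGTTTTG in 6.28%, CCAAT in 37.4%, the half-site TGACG in 20.8% and TGACGTCA in 1.79%. The FOXO core occurred in 1.23% and TATTTTG in 4.36%, and neither of them nor TGACGTCA matched in a window of these enzymes. CCAAT also matched in windows of Fbp1 and Pcx and the half-site in windows of Slc37a4, which did not pass the test, and Gpt2 had no match.

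**Figure D1:**
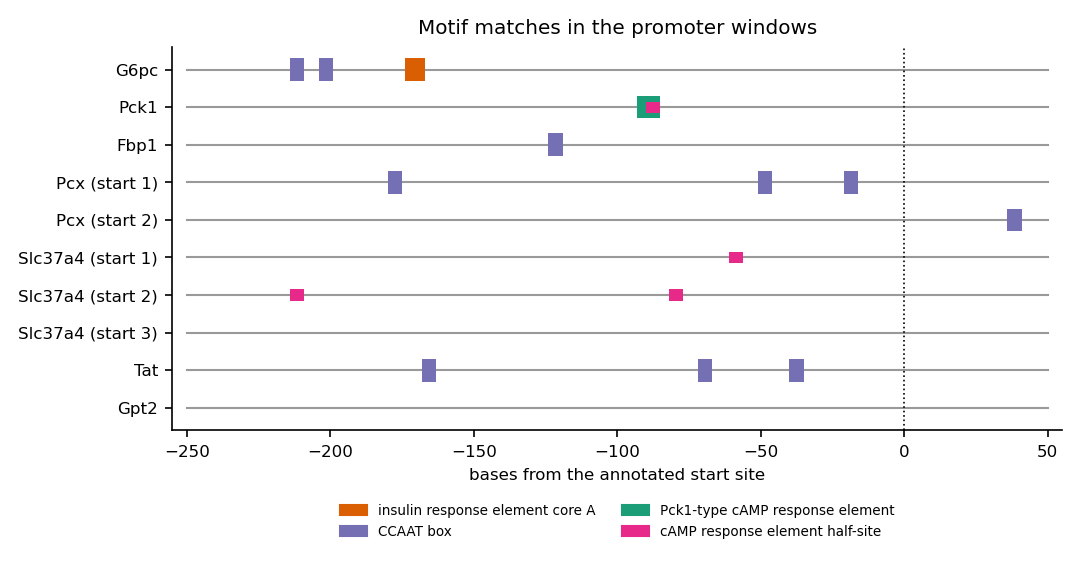
Motif matches in the RefSeq promoter windows of 7 of the enzymes. The horizontal axis gives bases from the annotated start site, each line is a window of 300 bases, and coloured boxes are matches on either strand. The insulin response core appears for G6pc. The Pck1-type cAMP element appears for Pck1, the gene from which that form is known.

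On the arrays, signal intensities are linear and 1 value stands for each probe set and array. Tests used log2(signal + 32) in limma with all 6 arrays in a single model, and a gene is said to rise or fall at a Benjamini-Hochberg adjusted p under 0.05 over all 9685 genes. Adjusted p-values below are from that limma fit, and errors of log2 differences are its standard errors with n = 2 arrays per group. Fold changes are on the same log2(signal + 32) scale. Both hormones were compared with the same vehicle arrays, so their differences from vehicle are not independent. In whole liver, fewer cells of a type and less RNA per cell cannot be told apart.

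With FGF19 against vehicle, 6.29% of all genes tested were called higher and 7.27% lower. Against that background, 1 of the 8 enzymes was higher and 2 were lower, and their median log2 difference was 0.01, beside -0.07 over all genes. With FGF15 against vehicle, 5.91% of genes were called higher and 6.67% lower. The enzymes called were 1 higher and 3 lower of 8, with a median of -0.01 beside -0.05 over all genes. Between FGF19 and FGF15, 2.41% of genes were higher with FGF19 and 1.89% lower, and 2 of the enzymes were higher and 0 lower. That 0 stood at 0 at an unadjusted p under 0.05 as well, and 1 was lower when FGF19 replicate 2 was left out (Fbp1, adjusted p = 0.0318).

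FGF19 replicate 1 stood apart in measures of RNA quality. Its ratio of 3′ to 5′ signal was 3.38 in the pyruvate carboxylase controls, against 2.27 to 2.73 on the other arrays, and 1.63 in the β-actin controls, against 1.30 to 1.39. The summed signal of 7 hepatocyte markers was 48877 on that array and 58676 to 68403 on the others. No such marker was called in any of the comparisons. Kupffer cell markers were low with both hormones, with 9 of 11 falling with FGF19 and 10 with FGF15, and their sum was 3499 to 3534 with FGF19 and 3484 to 3608 with FGF15, against 6427 to 6525 with vehicle. Kidney cells also make glucose, but the 6 kidney markers did not exceed a signal of 46.5, and none of the 2 that passed the filter was called. The intestinal list summed to 1248 to 1325 with FGF19 and 1255 to 1459 with FGF15, against 523 to 546 with vehicle, nearly all of it from Fabp2, while Vil1 and Lct did not exceed 17.9. Of 8 endothelial markers, 0 fell with FGF19 and 1 with FGF15, and of 6 stellate cell markers 2 fell with each hormone. No adipocyte marker passed the filter, and the 1 pancreatic marker that did, Cela1, fell with FGF19. The part of these shifts in the results below was not tested.

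G6pc encodes the catalytic subunit of glucose-6-phosphatase, which releases free glucose. Its signal (probe set 1417880_at) was 827 and 753 on the FGF19 arrays and 591 and 661 on the FGF15 arrays, against 1602 and 1604 on the vehicle arrays. All hormone arrays lay far under both vehicle arrays, and the FGF19 arrays lay above the FGF15 arrays. The log2 difference was -0.99 ± 0.08 with FGF19 (adjusted p = 2.55e-05) and -1.31 ± 0.08 with FGF15 (adjusted p = 4.81e-06). Counted from the lowest difference among 9685 genes, G6pc ranked 49 with FGF19 and 25 with FGF15. Both calls held under all 17 alternatives run.

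Between the hormones, G6pc was 0.32 ± 0.08 higher with FGF19 than with FGF15 (adjusted p = 0.0453). This call held under 7 of the 17 alternatives. Its adjusted p was 0.0876 without vehicle replicate 1, 0.0882 without vehicle replicate 2, 0.246 without FGF15 replicate 1 and 0.225 without FGF19 replicate 1.

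Slc37a4, the transporter that supplies glucose-6-phosphatase with its substrate, did not pass in any comparison. Its signal (1417042_at) was 1617 and 1712 with FGF19 and 1661 and 1701 with FGF15, against 1699 and 1679 with vehicle. The groups overlapped. The 95% interval of the log2 difference was -0.16 to 0.12 with FGF19 and -0.15 to 0.13 with FGF15, so a change of the size seen in G6pc lies outside it.

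A ratio of signals on the same array does not depend on how arrays were scaled, although its absolute size depends on how well each probe set binds. The ratio of G6pc to Slc37a4 was 0.511 and 0.440 with FGF19 and 0.356 and 0.389 with FGF15, against 0.943 and 0.955 with vehicle. The ratio of these 2 parts of the glucose-6-phosphatase system was thus lower on every hormone array than on either vehicle array, and it was not tested. G6pc to Fbp1, which acts earlier on the path to glucose, gave 0.122 and 0.0945 with FGF19 and 0.0742 and 0.0797 with FGF15, against 0.197 and 0.199 with vehicle.

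**Figure D2:**
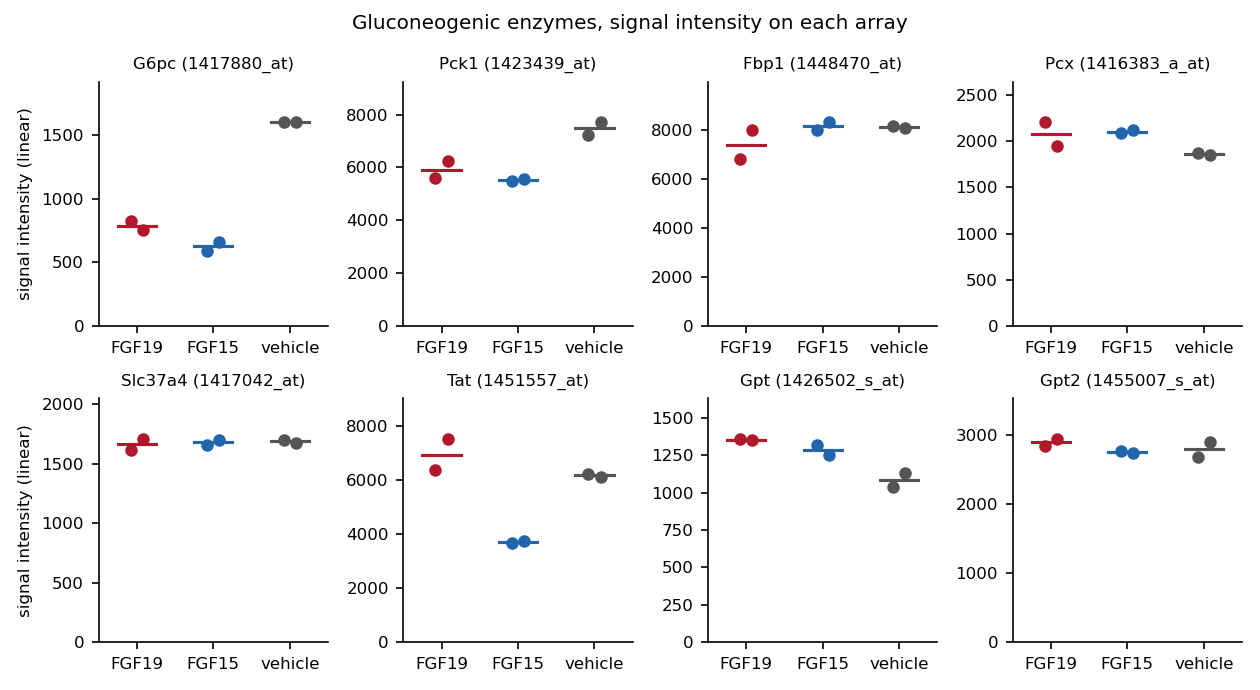
Signal intensity (linear, vertical axes from 0) of the 8 measured enzymes on each of the 6 arrays. Points are arrays, short lines the mean of 2 arrays. G6pc lies at 591 to 827 with either hormone against 1602 and 1604 with vehicle, and Tat at 3670 and 3738 with FGF15 alone.

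Pck1 encodes the cytosolic carboxykinase that turns oxaloacetate into phosphoenolpyruvate. Its signal (1423439_at) was 5588 and 6256 with FGF19 and 5484 and 5583 with FGF15, against 7246 and 7714 with vehicle. Hormone and vehicle arrays did not overlap. Such a gap was seen in 6 of the 8 enzymes between FGF19 and vehicle, where 58.7% of all genes had it, in 5 between FGF15 and vehicle (55% of all genes) and in 5 between FGF19 and FGF15 (45.9%). Pck1 fell by 0.34 ± 0.08 on the log2 scale with FGF19 (adjusted p = 0.0162) and by 0.43 ± 0.08 with FGF15 (adjusted p = 0.00488).

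The call with FGF19 ended without vehicle replicate 1 (adjusted p = 0.0778) or vehicle replicate 2 (0.144), with arrays centred on their medians (0.189), with all probe sets tested (0.0614) and without an intensity trend (0.093). That with FGF15 ended without vehicle replicate 2 (adjusted p = 0.0717), with the mean of the probe sets (0.069) and without a trend (0.0559). The hormones did not differ by the test in Pck1, with a log2 difference of 0.10 between FGF19 and FGF15 and a 95% interval of -0.07 to 0.26. A further Pck1 probe set, 1455209_at, read 6.55 to 7.94 with FGF19 and 7.13 to 21.2 with FGF15, against 15.9 to 24.7 with vehicle. Those signals are near or under the filter level of 14.03 and no difference was read from them. The mean of the probe sets given above does include them.

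Pcx encodes the mitochondrial enzyme that makes oxaloacetate from pyruvate. Its ordinary probe set (1416383_a_at) read 2207 and 1946 with FGF19 and 2091 and 2118 with FGF15, against 1874 and 1855 with vehicle. The hormone arrays all lay above the vehicle arrays, by 0.15 ± 0.07 (adjusted p = 0.205) with FGF19 and 0.17 ± 0.07 (adjusted p = 0.162) with FGF15, and neither difference passed the test. With arrays centred on their medians both passed (adjusted p = 0.0362 and 0.045). The FGF19 difference also passed without FGF19 replicate 2 (0.24, adjusted p = 0.0437), whereas without FGF19 replicate 1 it was 0.061 (adjusted p = 0.63).

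Pcx also has 4 control probe sets along the transcript, which were kept out of the test. The control nearest the 3′ end read 1460 and 1333 with FGF19 and 1297 and 1402 with FGF15, against 1091 and 1229 with vehicle. The control nearest the 5′ end read 433 and 534 with FGF19 and 517 and 514 with FGF15, against 480 and 494 with vehicle. With FGF15 all 4 were higher than with vehicle, by 0.05 to 0.23 on the log2 scale. With FGF19 they ran from -0.14 to 0.26 and so differed in sign, beside the higher 3′ to 5′ ratio of FGF19 replicate 1.

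The ratio of Pck1 to Pcx on an array was 2.53 and 3.22 with FGF19 and 2.62 and 2.64 with FGF15, against 3.87 and 4.16 with vehicle. The ratio of these enzymes on either side of oxaloacetate was therefore lower on all hormone arrays than on either vehicle array. A difference between their changes was not tested.

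**Figure D3:**
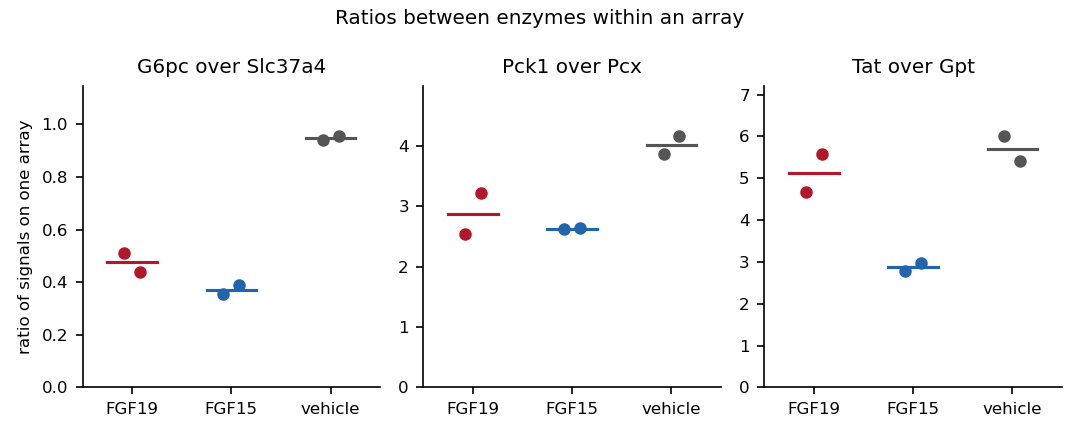
Ratio of 2 enzymes' signals on the same array (vertical axes from 0, no unit). Points are arrays and short lines the mean of 2 arrays. G6pc over Slc37a4 lies at 0.356 to 0.511 with the hormones against 0.943 and 0.955 with vehicle, and Tat over Gpt is low with FGF15 only. Gpt was itself called higher with both hormones.

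Fbp1 encodes the phosphatase of the fructose bisphosphate step. Its signal (1448470_at) was 6795 and 7971 with FGF19 and 7966 and 8297 with FGF15, against 8136 and 8042 with vehicle. The low value was that of FGF19 replicate 1, the array that stood apart, and the other 5 arrays were close together. The log2 difference was -0.14 with FGF19 (95% interval -0.32 to 0.05) and 0.01 with FGF15 (-0.18 to 0.19), and the FGF19 difference passed the test without FGF19 replicate 2, when replicate 1 stood alone (-0.25, adjusted p = 0.0186).

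Tat encodes tyrosine aminotransferase, an enzyme of liver that glucocorticoids and cAMP are known to raise. Its signal (1451557_at) was 6355 and 7528 on the FGF19 arrays and 3670 and 3738 on the FGF15 arrays, against 6227 and 6116 on the vehicle arrays. The FGF15 arrays stood clearly under all others, and both FGF19 arrays lay slightly above vehicle. The log2 difference from vehicle was -0.73 ± 0.08 with FGF15 (adjusted p = 0.000369) and 0.16 ± 0.08 with FGF19 (adjusted p = 0.233).

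The direct test between the hormones gave 0.90 ± 0.08 for FGF19 against FGF15 (adjusted p = 0.000219), and Tat ranked 56 from the highest among the 9685 genes. The FGF15 call and the call between hormones held under all 17 alternatives. The difference of FGF19 from vehicle passed without FGF19 replicate 1 (0.29, adjusted p = 0.0137), with quantile normalization (0.33, adjusted p = 0.000411) and with centring on medians (0.31, adjusted p = 0.040), as a rise each time. Without FGF19 replicate 2 it was 0.042 (adjusted p = 0.686). The ratio of Tat to Gpt on an array was 4.68 and 5.58 with FGF19 and 2.78 and 2.98 with FGF15, against 6.00 and 5.41 with vehicle. FGF15 arrays alone were low, while FGF19 and vehicle arrays overlapped. Gpt was itself called higher with both hormones, which lowers this ratio on the hormone arrays.

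Gpt and Gpt2 encode the cytosolic and the mitochondrial alanine transaminase, which exchange the amino group between alanine and glutamate. Gpt (1426502_s_at, a probe set that can bind related transcripts) read 1359 and 1348 with FGF19 and 1318 and 1254 with FGF15, against 1037 and 1131 with vehicle. All hormone arrays lay above both vehicle arrays. The rise was 0.31 ± 0.07 on the log2 scale with FGF19 (adjusted p = 0.0134) and 0.24 ± 0.07 with FGF15 (adjusted p = 0.0466).

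The FGF15 call of Gpt did not survive the loss of any one array of either group (adjusted p = 0.0831 to 0.295), nor the replicate number as a block (0.0533), and it held under 8 of the 17 alternatives. The FGF19 call ended without vehicle replicate 1 (adjusted p = 0.138) or FGF19 replicate 1 (0.0514) and without an intensity trend (0.0936). Between the hormones the difference was 0.07, with a 95% interval of -0.08 to 0.22.

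Gpt2 had 3 probe sets and none passed in any comparison. The one of highest signal (1455007_s_at) read 2835 and 2941 with FGF19 and 2770 and 2734 with FGF15, against 2680 and 2898 with vehicle, so that both hormones overlapped with vehicle. Its log2 difference was 0.05 with FGF19 (95% interval -0.10 to 0.20) and -0.02 with FGF15 (-0.17 to 0.13). The others gave 0.05 and 0.02 with FGF19 and 0.00 and -0.17 with FGF15. A difference between Gpt and Gpt2 was not tested.

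**Figure D4:**
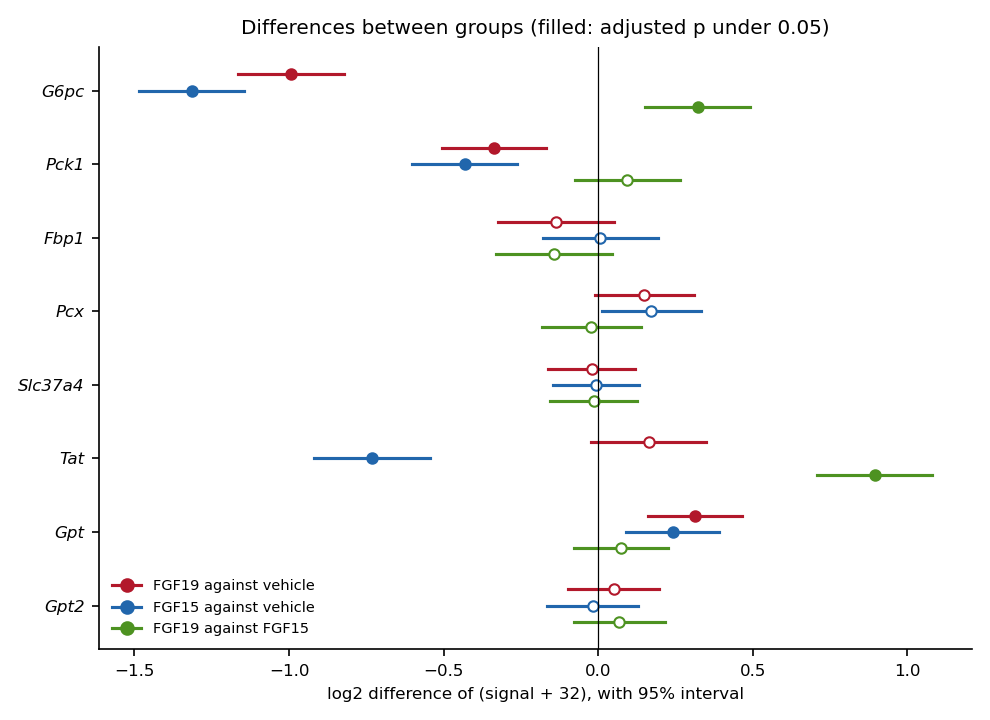
Log2 difference of (signal + 32) for 8 enzymes in the comparisons FGF19 against vehicle, FGF15 against vehicle and FGF19 against FGF15, with 95% intervals from limma (n = 2 arrays per group). Filled points have an adjusted p under 0.05. Against vehicle, Tat lies at 0.16 with FGF19, which did not pass, and at -0.73 with FGF15.

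The median of all genes was below 0 against vehicle, and centring arrays on their medians moved it up by 0.15 with FGF19 and 0.12 with FGF15. Relative to the median of all genes, the difference with FGF19 was -0.92 for G6pc, -0.26 for Pck1, 0.24 for Tat, 0.39 for Gpt and 0.22 for Pcx. With FGF15 it was -1.27 for G6pc, -0.39 for Pck1, -0.68 for Tat, 0.29 for Gpt and 0.22 for Pcx. Fbp1, Slc37a4 and Gpt2 lay between -0.06 and 0.12 of the median with either hormone. With centring, 78.7% of the calls of all genes with FGF19 were higher, against 46.4% as deposited, and 73.9% with FGF15, against 47.0%. Centring left the median of all genes above 0, at 0.074 with FGF19 and 0.070 with FGF15. Quantile normalization brought that median to 0.001 with FGF19 and 0.006 with FGF15, and 52.9% and 51.75% of its calls were higher. The numbers of enzymes called with centring were 3 higher and 1 lower with FGF19 and 2 higher and 3 lower with FGF15.

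Genes whose profile over the 6 arrays was most like that of a called enzyme were sought by the root mean square distance between log2 profiles, each centred on its vehicle mean. Nearest to G6pc were Cdh1 (distance 0.07), Limd2 (0.09) and Ugt2b37 (0.15). Cdh1, the E-cadherin of periportal hepatocytes, changed by -1.04 with FGF19 and -1.31 with FGF15. Nearest to Tat were S100a9 (0.07), a calcium-binding protein of neutrophils, Igha (0.09), an immunoglobulin heavy chain, and Slc25a51 (0.09), a mitochondrial carrier. These fell with FGF15 by 0.82, 0.78 and 0.61 and changed by 0.12, 0.11 and 0.11 with FGF19, which did not pass. S100a9 is one of 4 measured neutrophil markers, of which 1 fell with FGF19 and 3 with FGF15. Their summed signal was 447 and 498 with FGF19 and 273 and 269 with FGF15, against 564 and 565 with vehicle, and the part of these cells in the Tat result was not tested. Pck1 and Gpt changed little, and many genes lie near such profiles: the nearest were P2rx4, Tet1 and Slc40a1 at 0.02 to 0.04 from Pck1, and Slc1a2, Nol12 and Hspa4 at 0.03 from Gpt.

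Genes around the pathway were taken from lists by name. The counts below stand beside 6.29% of all genes called higher and 7.27% lower with FGF19, and 5.91% and 6.67% with FGF15. Of the enzymes shared with glycolysis, 3 of 7 were measured (Tpi1, Pgk1 and Pgam1). None passed with FGF19, where 1 fell at an unadjusted p under 0.05, and 1 fell with FGF15. That one was Tpi1, triose phosphate isomerase, with -0.19 ± 0.06 with FGF19 (adjusted p = 0.0724) and -0.25 ± 0.06 with FGF15 (adjusted p = 0.0285). The FGF19 difference passed as a fall with quantile normalization (-0.26, adjusted p = 0.00981). The FGF15 call was lost when any vehicle or FGF15 array was omitted (adjusted p = 0.0855 to 0.165) and with centring on medians (0.336). Pgk1 and Pgam1 lay between -0.05 and 0.03 with either hormone.

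Of 15 measured genes that supply carbon to the pathway, 4 rose and 1 fell with FGF19, and 2 rose and 1 fell with FGF15. Their median log2 difference was 0.05 with FGF19 and 0.08 with FGF15. With FGF19, 2 fell without FGF19 replicate 2 and 0 without either vehicle array or FGF19 replicate 1. With FGF15, 0 rose when replicate 2 of vehicle or of FGF15 was omitted, 1 when replicate 1 of these groups was omitted and 3 when either FGF19 array was, and 2 fell without vehicle replicate 1. Centring on medians gave 6 higher and 0 lower with FGF19 and 7 higher and 1 lower with FGF15. Slc38a2, an amino acid transporter that takes up alanine and other neutral amino acids, read 2689 and 2569 with FGF19 and 1042 and 1058 with FGF15, against 1137 and 1475 with vehicle. It rose by 1.00 ± 0.10 with FGF19 (adjusted p = 0.000178), did not pass with FGF15 (-0.30, adjusted p = 0.0958, but a fall of -0.48 with adjusted p = 0.0145 when vehicle replicate 1 was omitted) and differed between the hormones by 1.30 ± 0.10 (adjusted p = 8.04e-05).

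The monocarboxylate transporter Slc16a1, which carries lactate and pyruvate, rose by 0.66 ± 0.07 with FGF19 (adjusted p = 0.00028). Its rise of 0.27 with FGF15 was lost when any vehicle or FGF15 array was omitted (adjusted p = 0.0554 to 0.263). Slc25a10, the mitochondrial dicarboxylate carrier, rose by 0.50 ± 0.07 with FGF19 (adjusted p = 0.000883) and had 0.18 ± 0.07 with FGF15, which did not pass. Mpc1, a subunit of the mitochondrial pyruvate carrier, named after its values were seen, rose by 0.31 ± 0.07 with FGF19 (adjusted p = 0.0174) and by 0.39 ± 0.07 with FGF15 (adjusted p = 0.00559). Omitting vehicle replicate 2 ended both of its calls (0.154 with FGF19, 0.0753 with FGF15), and so did omitting replicate 2 of the hormone concerned (0.0568 and 0.0505). Got1, the cytosolic aspartate aminotransferase, fell by 0.53 ± 0.08 with FGF15 (adjusted p = 0.0019). It fell by 0.32 ± 0.08 with FGF19, and this call needed both vehicle arrays and FGF19 replicate 1 (adjusted p = 0.0626 to 0.15 without one of them).

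Of 12 measured genes of amino acid catabolism other than the enzymes above, 0 rose and 2 fell with FGF19, and 0 rose and 1 fell with FGF15. At an unadjusted p under 0.05, 0 rose with FGF19 and 1 with FGF15. With FGF19, the number that fell was 6 without FGF19 replicate 2, 0 without vehicle replicate 1 and 1 without any other array, and it was 0 with centring on medians. Prodh, proline dehydrogenase, was the gene that fell with both, by 0.40 ± 0.07 with FGF19 and 0.36 ± 0.07 with FGF15. These calls ended without vehicle replicate 1 (adjusted p = 0.05005 and 0.0801), that with FGF15 also without vehicle replicate 2 (0.0611) or FGF15 replicate 1 (0.0502), and both with centring on medians. Hpd, of tyrosine breakdown like Tat, fell by 0.31 ± 0.08 with FGF19 (adjusted p = 0.0383), a call that ended without any one array other than FGF19 replicate 2 (0.0632 to 0.207), and had -0.10 ± 0.08 with FGF15. Oat, ornithine aminotransferase, read 4852 and 5956 with FGF19 and 5236 and 6749 with FGF15, against 4428 and 4714 with vehicle. Its difference of 0.38 ± 0.12 with FGF15 did not pass (adjusted p = 0.0793), but it did under 7 alternatives as a rise (0.012 to 0.0459), among them the replicate block, centring on medians and the omission of FGF15 replicate 1, and with FGF19 (0.23 ± 0.12) it passed with quantile normalization alone (0.0486). Glud1, glutamate dehydrogenase, had -0.21 ± 0.08 with FGF19 and -0.15 ± 0.08 with FGF15, and passed as a fall with FGF19 when FGF19 replicate 2 was omitted (adjusted p = 0.0111).

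Of 9 measured genes on a list of glucose use and its control, 3 rose and 1 fell with FGF19, and 3 rose and 0 fell with FGF15. The list is mixed: it holds enzymes of glycolysis and glycogen synthesis, but also Pdk1 and Pdk2, kinases that inhibit pyruvate dehydrogenase and so spare pyruvate. Pdk1 was among the rises with each hormone and Pdk2 was the fall with FGF19. With FGF15, 0 fell at an unadjusted p under 0.05 too. The median log2 difference of the list was 0.20 with FGF19 and 0.13 with FGF15. Centring on medians gave 5 higher and 0 lower with FGF19 and 4 higher and 0 lower with FGF15. The number that rose was 2 with FGF19 without either vehicle array or FGF19 replicate 2, and 2 with FGF15 without either vehicle array. Pdk2, picked once its values had been seen, fell by 0.47 ± 0.10 (adjusted p = 0.01, but 0.0608 to 0.077 without either vehicle array or FGF19 replicate 1). Gys2, liver glycogen synthase, read 1177 and 988 with FGF19 and 1017 and 973 with FGF15, against 725 on both vehicle arrays, and rose by 0.55 ± 0.08 (adjusted p = 0.00199) with FGF19 and 0.44 ± 0.08 (adjusted p = 0.00774) with FGF15. The FGF15 call ended without vehicle replicate 1 (0.0605) or vehicle replicate 2 (0.0561).

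Pklr, liver pyruvate kinase, rose by 0.73 ± 0.10 with FGF15 (adjusted p = 0.000966) and had 0.32 ± 0.10 with FGF19 (adjusted p = 0.0551). Its other probe sets gave -0.002 and 0.19 with FGF19 and 0.11 and 0.71 with FGF15. The FGF19 difference passed as a rise with the replicate block (adjusted p = 0.0452), with centring on medians (0.00747), with the filter at the 50th percentile (0.0393) and when FGF19 replicate 1 was omitted (0.0139). Pfkfb3, which makes the activator of phosphofructokinase, rose by 0.77 ± 0.12 with FGF19 (adjusted p = 0.002) and had 0.12 with FGF15, while its other probe set gave 0.36 with FGF19 and -0.12 with FGF15. Pdk1 rose by 0.47 ± 0.08 with FGF15 (adjusted p = 0.00277). Its rise of 0.30 with FGF19 ended without vehicle replicate 1 (0.196), vehicle replicate 2 (0.0548), FGF19 replicate 1 (0.137) or FGF19 replicate 2 (0.0661).

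All 20 regulators of the pathway on the list were measured. Their median log2 difference was -0.17 with FGF19 and -0.19 with FGF15, beside -0.07 and -0.05 over all genes. With FGF19, 2 rose and 7 fell, and omitting vehicle replicate 2 left 2 that fell and omitting either FGF19 array left 3. With FGF15, 2 rose and 5 fell, and 3 fell without either vehicle array or either FGF19 array. The number that rose was 1 without vehicle replicate 1 in both comparisons, and with FGF15 also without vehicle replicate 2 or either FGF15 array. Centring on medians gave 2 higher and 5 lower with FGF19 and 2 higher and 3 lower with FGF15. Ppargc1a, the coactivator that raises gluconeogenic genes in fasting, read 111 and 131 with FGF19 and 31.0 and 29.7 with FGF15, against 204 and 198 with vehicle. It fell by 0.61 ± 0.12 with FGF19 (adjusted p = 0.00863) and it fell by 1.90 ± 0.12 with FGF15 (adjusted p = 8.19e-06), and the hormones differed by 1.29 ± 0.12 (adjusted p = 0.00022). Its other 4 probe sets gave -0.82 to -0.45 with FGF19 and -1.33 to -1.11 with FGF15. Between the hormones they gave 0.47 to 0.88, less than the probe set used. The FGF19 call ended without vehicle replicate 1 (0.0679), vehicle replicate 2 (0.0528) or FGF19 replicate 1 (0.0790).

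Ppargc1b, a related coactivator, fell by 1.19 ± 0.16 with FGF19 (adjusted p = 0.000991) and by 0.99 ± 0.16 with FGF15 (adjusted p = 0.0032). Nr0b2, which encodes the repressor SHP, rose by 1.03 ± 0.09 with FGF19 and 1.02 ± 0.09 with FGF15, with a difference between the hormones of 0.01 ± 0.09. Cebpa, a transcription factor that drives liver metabolic genes, read 1015 and 1013 with FGF19 and 1846 and 1904 with FGF15, against 1577 and 1507 with vehicle. Cebpa fell by 0.59 ± 0.06 with FGF19 (adjusted p = 0.00022) and stood 0.87 ± 0.06 lower with FGF19 than with FGF15 (adjusted p = 3.98e-05). Its rise of 0.28 with FGF15 was lost when any vehicle or FGF15 array was omitted (adjusted p = 0.0514 to 0.14).

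The other regulators called against vehicle were picked once their values had been seen. Cebpb, a transcription factor known to bind promoters of gluconeogenic genes, read 3098 and 3089 with FGF19 and 1873 and 1874 with FGF15, against 2424 and 2584 with vehicle. Like Tat, it was lowest on the FGF15 arrays. It fell by 0.41 ± 0.06 with FGF15 (adjusted p = 0.00219) and stood 0.71 ± 0.06 higher with FGF19 than with FGF15 (adjusted p = 0.000155). Its rise of 0.30 with FGF19 ended without vehicle replicate 1 (adjusted p = 0.132), and its other probe set gave 0.06. Foxo1, which drives G6pc when insulin is low, fell by 0.50 ± 0.14 with FGF15 (adjusted p = 0.0447), a call that was lost without any array other than FGF15 replicate 1 (0.056 to 0.212). Klf15, a factor that raises amino acid catabolism in fasting, fell by 0.36 ± 0.10 with FGF19 and 0.37 ± 0.10 with FGF15, and neither call held without vehicle replicate 1 (adjusted p = 0.105 and 0.103) or vehicle replicate 2 (0.173 and 0.18).

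Onecut1, a hepatocyte transcription factor, read 255 and 226 with FGF19 and 399 and 485 with FGF15, against 357 and 483 with vehicle. The FGF19 arrays lay under all others. It fell by 0.72 ± 0.14 with FGF19 (adjusted p = 0.00691), had 0.08 ± 0.14 with FGF15, and stood 0.80 ± 0.14 lower with FGF19 than with FGF15 (adjusted p = 0.00819). The fall ended when vehicle replicate 2 (0.0542) or FGF19 replicate 2 (0.0551) was omitted, and the difference between hormones when replicate 2 of either was (0.061 for FGF15, 0.0672 for FGF19). With FGF15 its other probe set gave 0.63, and the mean of both passed as a rise (0.35, adjusted p = 0.0398). Esrra, a nuclear receptor that works with PGC-1 coactivators, fell by 0.67 ± 0.14 with FGF19 (adjusted p = 0.0132), and Nr3c1, the glucocorticoid receptor, fell by 0.33 ± 0.09 (adjusted p = 0.0365). Both calls were lost when vehicle replicate 2 or either FGF19 array was omitted (0.0572 to 0.1 for Esrra, 0.119 to 0.216 for Nr3c1). With FGF15, Esrra had -0.45 ± 0.14 (adjusted p = 0.0707), which passed when FGF15 replicate 1 was omitted (0.0393), and Nr3c1 had -0.17 ± 0.09.

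**Figure D5:**
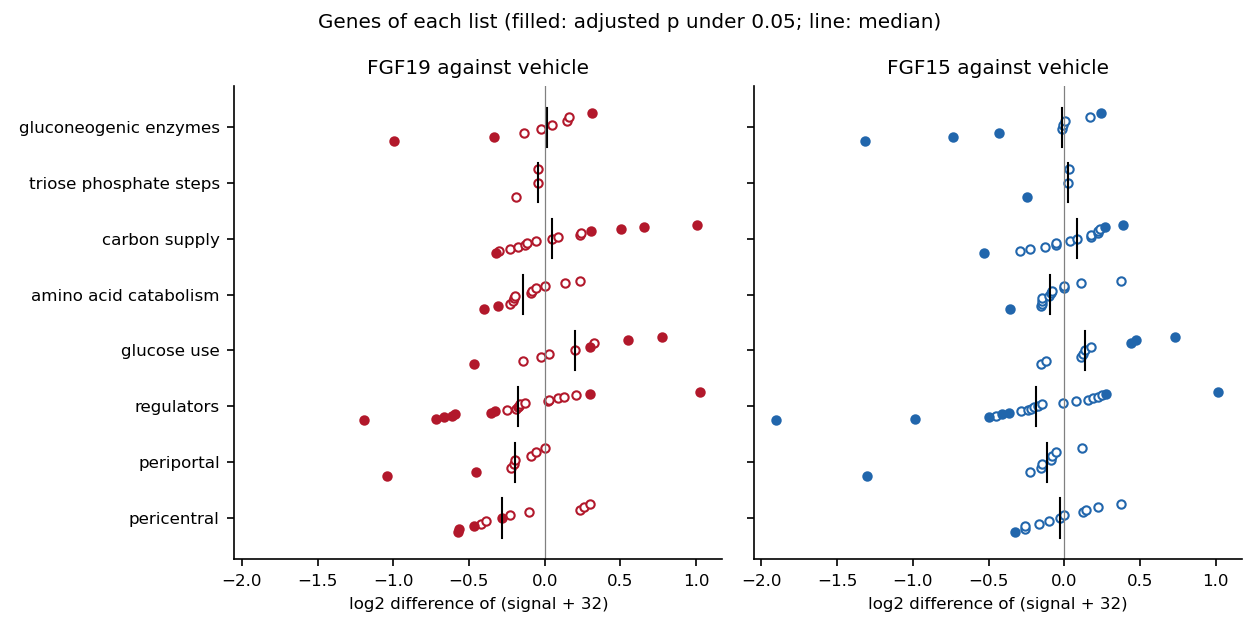
Log2 difference of (signal + 32) from vehicle for the genes of each list, FGF19 on the left and FGF15 on the right. Each point is a gene, filled where the adjusted p was under 0.05, and black lines are list medians. Both G6pc points lie below the rest of their list, at -0.99 and -1.31.

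Gluconeogenesis is known to run mainly in periportal hepatocytes, so genes of both liver zones were listed. Of 8 measured periportal genes, 0 rose and 2 fell with FGF19 and 0 rose and 1 fell with FGF15, with medians of -0.20 and -0.12. At an unadjusted p under 0.05, 0 rose with either hormone. The number that fell was 5 with FGF19 without FGF19 replicate 2 and 1 without vehicle replicate 1, and 2 with FGF15 without either FGF19 array. Cdh1, nearest to G6pc in profile, fell with both, and Cyp2f2, a periportal cytochrome P450, fell by 0.45 ± 0.08 with FGF19 (adjusted p = 0.0058, but 0.069 without vehicle replicate 1). Cps1 and Pigr did not pass against vehicle. With FGF19, Pigr did pass as a fall with quantile normalization (-0.18, adjusted p = 0.037) and with the replicate block (-0.22, adjusted p = 0.0488). Without FGF19 replicate 2 the differences with FGF19 were -0.31 for Cps1 and -0.29 for Pigr.

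Of 11 pericentral genes, 0 rose and 4 fell with FGF19 and 0 rose and 1 fell with FGF15, with medians of -0.28 and -0.03. At an unadjusted p under 0.05, 1 rose with each hormone. With FGF19 the number that fell was 1 without vehicle replicate 1 or with centring on medians, and 2 without vehicle replicate 2 or FGF19 replicate 1. With FGF15 it was 0 without either vehicle array and 3 without either FGF19 array. Gulo, which in mice makes ascorbate, fell by 0.47 ± 0.06 with FGF19 (adjusted p = 0.000786), and its fall of 0.33 with FGF15 ended without vehicle replicate 1 (0.0756) or vehicle replicate 2 (0.0507). The other genes called with FGF19 were Cyp1a2, a cytochrome P450, and Lgr5 and Axin2, which respond to Wnt signals. Their adjusted p of 0.0129, 0.0406 and 0.0399 became 0.0938, 0.182 and 0.244 without vehicle replicate 1.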

How the data were processed

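The authors deposited a linear signal intensity for every probe set on every array. Leaving out 2% at each end, the deposited intensities averaged 200.1 on each array, and they were used as deposited. The sources used here do not give the software that summarised probes. The platform annotation paired 20380 of the ordinary probe sets with 1 gene, 20351 of which were named through their Entrez identifier in RefSeq's gene table (GRCm38.p6). The probe set of highest mean represented each of 12393 genes. Those with a mean log2 value under the 25th percentile (a signal of 14.03) were left out, which left 9685.

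Log2(signal + 32) was modelled in limma 3.58.1 (R 4.3.3) with lmFit and a trended eBayes, group being the only term, and tests were two-sided. There were 3 residual and 6.83 prior degrees of freedom. Precision is limited by the number of arrays, with a median standard error of 0.13. The fit was checked on simulated log2 values, while the offset, the filter and the choice of probe sets were not. Python 3.11.15 and matplotlib 3.10.9 drew the figures.

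The enzymes, the 7 pathway and 9 marker lists, the motifs and the tests were chosen with earlier results of these data known. The genes named were all enzymes, from each pathway list up to 4 genes by smallest p of either hormone against vehicle, and the 3 genes nearest in profile to each called enzyme. Klf15, Mpc1, Pdk2, Cebpb, Foxo1, Onecut1, Esrra and Nr3c1 were added once their values had been seen. The settings varied were the offset (8 and 64), the scaling, the filter, the choice of probe sets, the variance prior, the arrays in the model, a block for replicate number, and the omission of each array. Replicate numbers in the labels did not pair the arrays: differences between replicates 1 and 2 correlated across genes at -0.02 to 0.08 between groups.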

Additional observations from a re-analysis of the deposited data

Results flagged for a closer look

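Tat and G6pc differed between the responses to FGF19 and FGF15 in the direct limma comparison of the hormones. For Tat the log2 difference was 0.90 (adjusted p = 0.000219), with both FGF19 arrays above both vehicle arrays and both FGF15 arrays under them. For G6pc it was 0.32 (adjusted p = 0.0453), with all hormone arrays under vehicle, and the adjusted p over the alternatives ran from 0.0286 to 0.246. Groups of 2 arrays were too small for a search for single outlying arrays.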

How the results depend on the processing

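Of the 9 calls made for the enzymes, 4 held under all 17 alternatives: G6pc with either hormone, Tat with FGF15 and Tat between the hormones. The number of enzymes higher with FGF19 than with vehicle was 1, and 2 with quantile normalization, 3 with centring on array medians and 0 without an intensity trend (0 to 2 leaving out 1 array). The number lower was 2, and 1 with centring, with all probe sets tested or without a trend (1 to 3). With FGF15 against vehicle, 1 was higher, and 2 with centring and 0 with quantile normalization, no filter, all probe sets, no trend or the replicate number as a block (0 to 1), and 3 were lower (2 to 3). Between FGF19 and FGF15, 2 were higher, and 1 with centring, no filter, all probe sets, no trend, the arrays compared alone or the replicate block (1 to 2), and 0 were lower (0 to 1). The replicate block ended the calls of Gpt with FGF15 and of G6pc between the hormones and no other call of these enzymes, and changed the calls over all genes from 1313 to 1380 with FGF19, 1218 to 1246 with FGF15 and 416 to 450 between them.

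Some log2 differences turned sign, and apart from centring, which shifts all genes of a comparison alike, the cause was not tested. One was a call: Hspa4, 0.308 with FGF19 (adjusted p = 0.0165), was -0.0636 with the mean of its probe sets. The others did not pass the test. With FGF19 against vehicle, quantile normalization gave 0.0615 for Fbp1 and 0.0512 for Cps1. Centring gave 0.0105 for Fbp1, 0.125 for Slc37a4, 0.102 for Pgam1 and 0.099 for Pgk1. Leaving out 1 array gave -0.0613 to 0.019 for Slc37a4, -0.00509 to 0.107 for Gpt2 and -0.151 to 0.063 for Pgam1. With FGF15 against vehicle, quantile normalization gave -0.00914 for Pgam1, -0.0106 for Pgk1, 0.0079 for Hpd and 0.0398 for Cps1. Centring gave 0.11 for Slc37a4, 0.0987 for Gpt2, 0.0158 for Hpd and 0.0322 for Cps1, and the mean of a gene's probe sets gave -0.0705 for Pgk1 and -0.014 for Axin2. Leaving out 1 array gave -0.0219 to 0.0366 for Fbp1, -0.0234 to 0.0104 for Slc37a4, -0.0736 to 0.038 for Gpt2, -0.0842 to 0.13 for Pgam1, -0.043 to 0.102 for Pgk1, -0.0151 to 0.261 for Pfkfb3, -0.0449 to 0.287 for Axin2 and -0.126 to 0.28 for Onecut1. Between FGF19 and FGF15 the mean of probe sets, which includes the Pck1 probe set of low signal, gave -0.061 for Pck1. In that comparison centring gave 0.00787 for Pcx and 0.0151 for Slc37a4. Leaving out 1 array gave -0.111 to 0.0674 for Pcx and -0.0549 to 0.0254 for Slc37a4.

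Calls over all genes numbered 1313, 1218 and 416 in these comparisons. Fewer were called in each without FGF19 replicate 1, but such counts were not made for the omission of another array. That omission left 1 array for FGF19, and the part of its RNA quality was not tested.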
